A study of Paralichthys olivaceus with 22 samples.

Results

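The 151 array probes described here had a lower mean signal in the kidney of Japanese flounder (Paralichthys olivaceus) at both 6 h and 12 h after a preparation of the bacterium Edwardsiella tarda. They were chosen by their measured values, out of 14481 probes on the array. On a log2 scale, a probe's mean had to lie at least 1 below that of PBS fish at 6 h and at least 1.5 below at 12 h after E. tarda, and its change after Streptococcus iniae at 12 h had to be under 1. Each also had to be well above background on all 8 PBS arrays, which 7351 of the 14052 probes named by JFC contigs were. Of these 7351, 588 met the limit at 6 h, 151 met both E. tarda limits, and the limit on S. iniae removed 0 of them. The changes after E. tarda at both times and after S. iniae at 12 h are therefore a description of the selection. Where a count of members called in these contrasts is given, it describes the members and tests nothing.

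The study gave fish E. tarda FKC, S. iniae FKC or PBS and took kidney RNA at 6 h or 12 h, with 1 Cy3-labelled sample per array. FKC is the usual abbreviation for formalin-killed cells in work on fish vaccines, and the labels do not spell it out. E. tarda FKC had 3 arrays at 6 h and 4 at 12 h, S. iniae FKC had 3 and 4, and PBS had 4 and 4. The labels give no strain, dose, route or age, do not say which part of the kidney was taken, and do not say whether the samples of a group were separate fish, so a p-value reflects only how far these samples lie apart, which may be technical.

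The kidney of a bony fish filters blood and is also its main blood-forming organ, and its head end makes red cells, phagocytes and lymphocytes. E. tarda is a Gram-negative bacterium that can live inside phagocytes, S. iniae is a Gram-positive bacterium, and both cause disease in farmed flounder. Contact with killed bacteria sets off innate immune signalling, which changes many transcripts and moves cells between blood and organs. In bulk tissue, fewer cells of a type and less RNA per cell cannot be told apart. The files and the RefSeq table used here pair 0 of the JFC names with a gene, so the members are given by contig name with no function, and the kidney label could not be set against marker genes.

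Slide 1 carried the FKC samples of 6 h, slide 2 those of 12 h and slide 3 every PBS sample. Slide and treatment cannot be told apart in a comparison with PBS. Slide and time cannot be told apart between the FKC samples of 6 h and 12 h. On slides 1 and 2 the E. tarda arrays lay in row 1 and the S. iniae arrays in row 2. Slide row and preparation cannot be told apart there. On slide 3 PBS of 6 h lay in row 1 and PBS of 12 h in row 2, so slide row and time cannot be told apart. An array had 9583 to 10666 probes well above background on slide 1, 8087 to 9357 on slide 2 and 8195 to 9796 on slide 3. The number of arrays limits the precision. Added spike-in RNA, 6 probes well above background throughout, moved by -0.94 to 0.01 for E. tarda FKC over PBS at 6 h and by -0.31 to -0.17 at 12 h. For S. iniae FKC it moved by -0.52 to 0.15 at 6 h and by -0.35 to -0.23 at 12 h. Its part in the falls below was not tested. Over all 11068 probes tested the median change was -0.01 and -0.12 for E. tarda FKC at 6 h and 12 h, and -0.00314 and -0.09 for S. iniae FKC. Over the eligible probes, from which members could come, it was -0.12 and -0.16 for E. tarda FKC. For S. iniae FKC it was -0.03 and -0.07. The tested probes include ones too dim on PBS arrays to be eligible.

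After E. tarda FKC the members' median change was -1.47 at 6 h, a 2.77-fold lower signal, and -2.05 at 12 h, a 4.15-fold lower signal. At 6 h the changes ran between -3.65 and -1.002 with quartiles of -1.80 and -1.16, and 26 of 151 lay at -2 or below. At 12 h they ran between -6.91 and -1.501 with quartiles of -2.68 and -1.73, and 81 lay at -2 or below, 33 at -3 or below and 9 at -4 or below. These counts include members well above background on no E. tarda array of 12 h, whose sizes are only bounds. The 12 h change was the larger fall in 132 members and the smaller in 19, where the limit at 12 h was itself 0.5 lower. The median of the 12 h minus the 6 h change was -0.61, with a range of -3.995 to 0.98. In the fit over all tested probes, 141 of the 151 were called lower at 6 h, beside 14% of all probes tested, and 150 at 12 h, beside 20.3%, which follows from how the members were chosen.

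**Figure D1:**
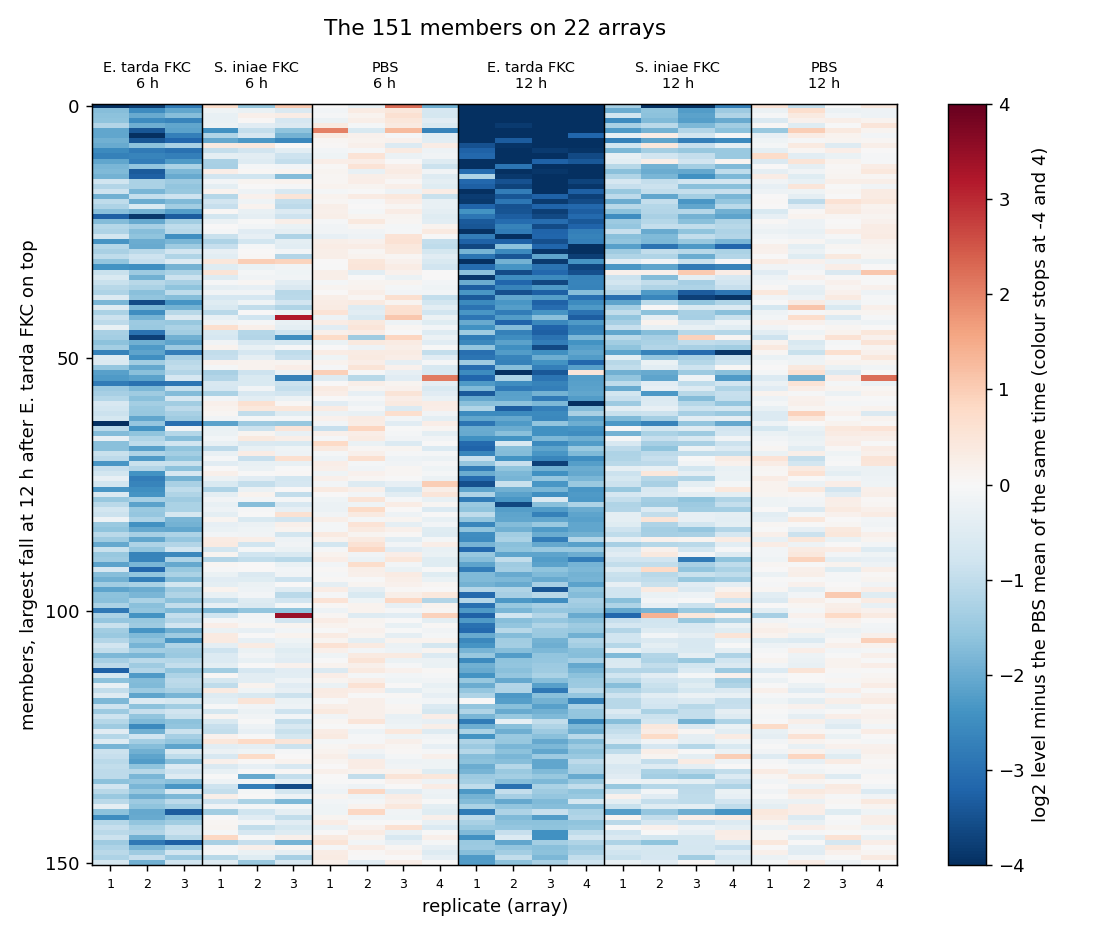
Each row is 1 of the 151 members, ordered by its change at 12 h after E. tarda FKC, each column is 1 array, and colour gives the log2 level less the PBS mean at that time, with blue for lower. The E. tarda columns are blue in nearly all rows at both times and darkest at 12 h, the S. iniae columns are pale at 6 h and light blue at 12 h, and the PBS columns are pale.

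The fall was present on every E. tarda array. The members' median change against the PBS mean was -1.24, -1.81 and -1.40 on the 3 E. tarda arrays of 6 h. It was -2.32, -2.03, -2.24 and -2.06 on the 4 arrays of 12 h. Replicate 1 of 12 h, the lowest, had the fewest probes well above background of the 22 arrays, 8087, and the most outlier-marked spots, 62. On it 90 members were well above background, against 101 to 126 on the others of its group. All 151 members lay below their PBS mean on each E. tarda array of 6 h, and 150 or 151 did on each of 12 h. The limits on the means of these same arrays largely bring this about. Replicate 2 of 6 h was the lowest of its group, and without it 124 probes met the limits, of which 119 were among the 151. On the S. iniae arrays the median was -0.31, -0.23 and -0.40 at 6 h. At 12 h it was -0.99, -0.94, -0.94 and -0.78. These values did not overlap those of E. tarda FKC at the same time, whose arrays chose the members. The PBS arrays lay at 0.07, 0.13, 0.07 and -0.24 at 6 h and at -0.08, -0.05, 0.04 and 0.10 at 12 h. PBS replicate 4 of 6 h stood lowest of the 8, with 116 of the 151 members below their PBS mean, and lay within the S. iniae range of 6 h. Without it 171 probes met the limits, 149 of them among the 151.

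**Figure D2:**
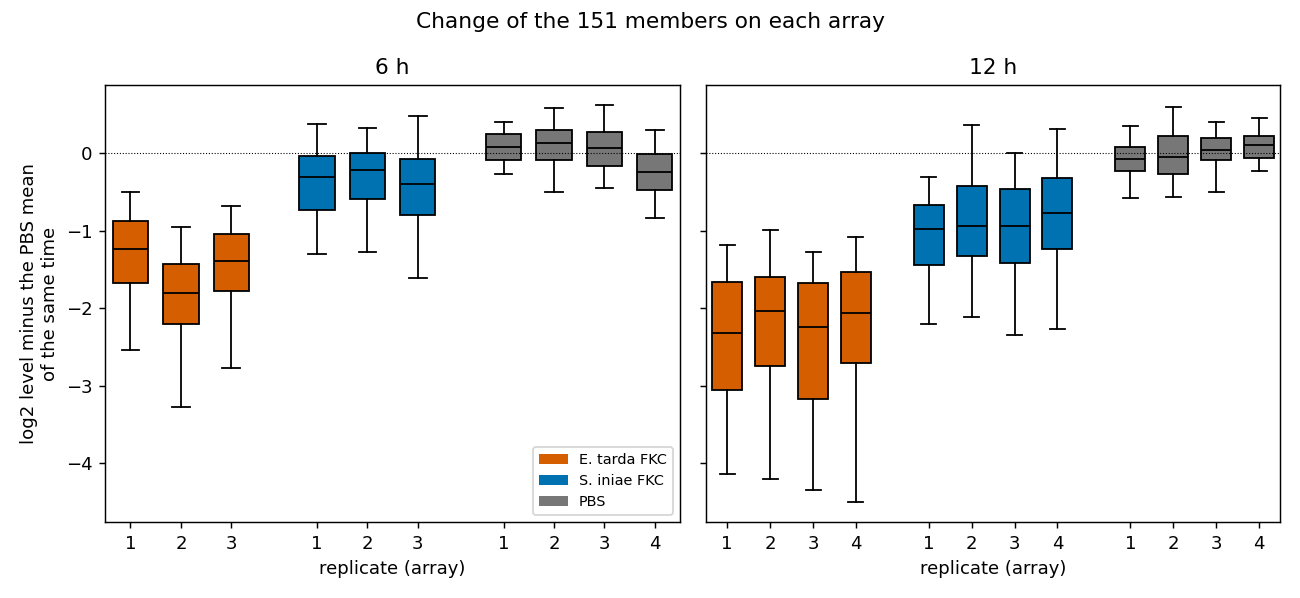
Boxes give the 151 members' log2 level minus the PBS mean of the same time on each array, at 6 h (left) and 12 h (right), with the median as a line, the quartiles as the box and the 5th to 95th percentiles as whiskers. Medians lie between -1.81 and -1.24 after E. tarda FKC at 6 h and between -2.32 and -2.03 at 12 h, below every S. iniae and PBS array of the same time.

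Levels were put on a log2 scale on which 0 is each array's own 75th percentile of processed signal. In PBS kidneys the members had a median level of -0.02, quartiles of -1.37 and 1.32 and a range of -2.97 to 7.71. The 7351 eligible probes had a median of -0.26, quartiles of -1.53 and 1.27, and a lowest level of -3.34. Thus 49.7% of the members and 44.9% of the eligible probes lay above 0, and 6 members lay above 4. The median fall was slightly larger at lower PBS levels at 6 h and had no steady order with this level at 12 h. The 51 members with the highest PBS level had a median of -1.38 at 6 h and -2.02 at 12 h, the middle 50 had -1.42 and -2.34, and the lowest 50 had -1.499 and -1.93. The members' replicates were farther apart than those of eligible probes in every group. Limits on means of few arrays favour probes with a wide spread, and many members were near background at 12 h after E. tarda FKC. These spreads are therefore a description, and the part of either was not tested. The median SD within a group was 0.43 against 0.33 for E. tarda FKC at 6 h and 0.51 against 0.29 at 12 h, 0.29 against 0.23 for S. iniae FKC at 6 h and 0.40 against 0.28 at 12 h, and 0.35 against 0.23 for PBS at 6 h and 0.28 against 0.23 at 12 h.

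**Figure D3:**
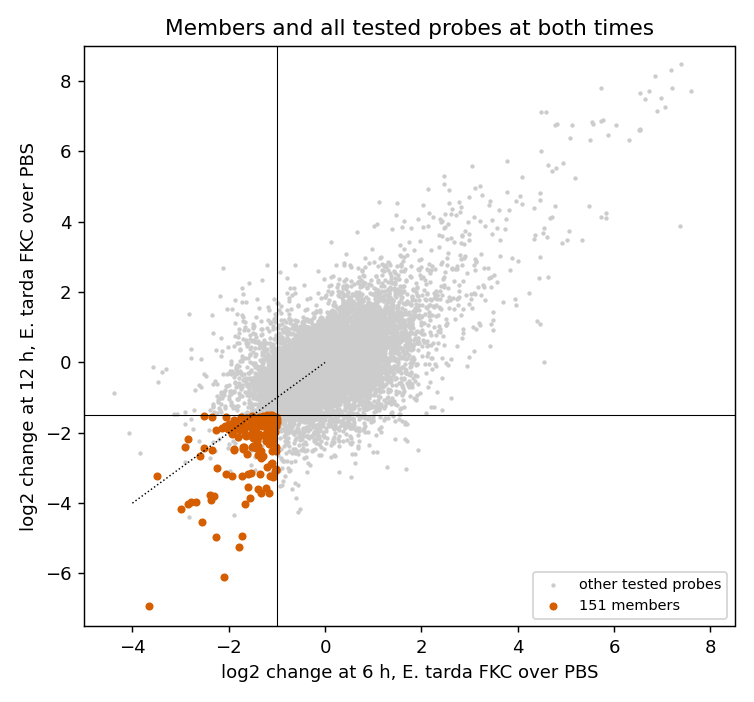
Each point is a tested probe, with its log2 change for E. tarda FKC over PBS at 6 h (horizontal) and 12 h (vertical); members are orange, solid lines are the limits of -1 and -1.5, and the dotted line marks equal change. Most members, 132 of 151, lie below the dotted line, and grey probes beyond both limits carry other names or were not well above background on every PBS array.

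Several members reached the background. At 6 h after E. tarda FKC, 129 members were well above background on every array, 17 on some and 5 on none. At 12 h these counts were 79, 56 and 16. The dimmest level that counted as well above background was not the same at both times. Averaged over the E. tarda arrays it was -4.51 or lower at 6 h and -3.85 at 12 h. The part of this difference in the counts was not tested. After S. iniae FKC, 149 were well above background on every array at 6 h and 0 on none, and 132 and 8 at 12 h. Where no array of a group measured a member above background, the fold has only a bound, PBS over the dimmer group. It was at least 1.89-fold to at least 23.9-fold for the 16 members at 12 h after E. tarda FKC, and at least 2.30-fold to at least 3.33-fold for the 5 at 6 h. Some bounds at 12 h, the lowest among them, fall short of the log2 limit of 1.5. The place of those members in the set rests on values not well above background. With the 16 and the 5 set to their bound, the median change was -1.47 at 6 h and -1.98 at 12 h. The 78 members well above background on all 22 arrays had medians of -1.36 at 6 h and -1.89 at 12 h after E. tarda FKC. The limits themselves passed through a dense region. Within 0.1 of the 6 h limit lay 25 members inside and 19 probes outside, and within 0.1 of the 12 h limit 18 members inside and 18 outside. The nearest members inside had changes of -1.01 and -1.002 at 6 h and -1.51 and -1.501 at 12 h, and the nearest probes outside had -0.98 and -0.98 at 6 h and -1.499 and -1.498 at 12 h.

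The largest falls at 12 h belonged to JFC16209_1_code and JFC21892_1_code. On the normalized log2 scale, JFC16209_1_code measured -3.28, -2.78 and -1.79 with E. tarda FKC, 1.74, -0.48 and 2.08 with S. iniae FKC, and 1.06, 0.73, 3.27 and -0.92 with PBS at 6 h. At 12 h it measured -5.27, -3.49, -5.37 and -3.89 with E. tarda FKC, 1.06, -1.58, -2.05 and -0.32 with S. iniae FKC, and 2.95, 1.45, 2.44 and 2.78 with PBS. Its E. tarda arrays lay below all S. iniae and PBS arrays at both times, and its PBS arrays of 6 h were far apart. The change after E. tarda FKC was -3.65 (SE 0.86) at 6 h and -6.91 (SE 0.80) at 12 h, the lowest of the members at each time. It was well above background on 2 of the 4 E. tarda arrays of 12 h, so that size is uncertain. After S. iniae FKC the change was 0.08 at 6 h and -3.13 at 12 h, and the sign at 6 h changed without S. iniae replicate 1 or 3 or PBS replicate 2 or 4. JFC21892_1_code had levels of 2.03, 1.21 and 1.64 with E. tarda FKC, 3.56, 3.47 and 3.16 with S. iniae FKC, and 3.62, 4.06, 4.16 and 3.06 with PBS at 6 h. At 12 h its levels were -2.51, -0.89, -2.74 and -0.91 with E. tarda FKC, 2.36, 2.73, 2.11 and 2.88 with S. iniae FKC, and 4.10, 4.998, 4.10 and 4.13 with PBS. Its signal stayed well above background on all 22 arrays, and the change after E. tarda FKC was -2.10 at 6 h and -6.10 at 12 h, the largest deepening between the times among the members. Its changes after S. iniae FKC were -0.33 and -1.81.

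The 6 h fall was next largest in JFC17046_1_code, whose fall did not deepen. Its levels at 6 h were -2.82, -3.42 and -2.89 with E. tarda FKC, -0.29, 0.09 and -0.39 with S. iniae FKC, and 0.70, 0.57, 0.55 and -0.02 with PBS. At 12 h they were -2.05, -2.46, -2.79 and -2.27 with E. tarda FKC, -1.67, -0.47, -1.06 and -1.28 with S. iniae FKC, and 0.501, 0.95, 0.92 and 0.94 with PBS. At 12 h E. tarda, S. iniae and PBS arrays followed in that order from low to high without overlap. Of the 6 h arrays those of E. tarda were below every other. The change after E. tarda FKC was -3.49 (SE 0.26) at 6 h and -3.22 (SE 0.24) at 12 h. Another member, JFC22453_1_code, named after its values were seen, also lay beyond -3 at 6 h, with changes of -3.001 at 6 h and -4.15 at 12 h after E. tarda FKC. Its E. tarda levels of 12 h were -4.88, -4.92, -4.70 and -3.54. The dimmest level that counted as well above background averaged -3.85 on those arrays, so the 12 h size is uncertain. The changes of JFC22453_1_code after S. iniae FKC were -1.26 at 6 h (SE 0.43, limma adjusted p = 0.165) and -0.21 at 12 h. At 6 h its S. iniae arrays, at -1.56, -1.02 and -2.23, lay below its PBS arrays, at -0.02, -0.17, -0.38 and -0.78.

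The largest bound among members lost to background was that of JFC20493_1_code, named after its values were seen. At 6 h its levels were -1.01, -1.39 and -1.08 with E. tarda FKC, 0.32, 0.84 and 0.93 with S. iniae FKC, and 0.57, 0.77, 1.24 and -0.06 with PBS. At 12 h they were -4.09, -3.88, -3.80 and -5.92 with E. tarda FKC, 0.03, -0.83, -1.34 and -0.38 with S. iniae FKC, and 0.76, 1.16, 0.71 and 0.62 with PBS. It was well above background on 0 of the 4 E. tarda arrays of 12 h, which puts it at least 23.9-fold lower than PBS. In contrast the member with the highest PBS level, JFC07151_1_code, stayed bright. Its levels were 7.28, 6.25 and 5.65 with E. tarda FKC, 7.59, 6.87 and 6.73 with S. iniae FKC, and 7.73, 7.41, 7.60 and 7.18 with PBS at 6 h. At 12 h they were 6.36, 5.86, 5.86 and 5.76 with E. tarda FKC, 7.55, 8.46, 7.60 and 7.52 with S. iniae FKC, and 7.59, 8.37, 7.96 and 7.81 with PBS. One E. tarda array of 6 h lay within the PBS range, and at 12 h no E. tarda array did. The changes were -1.09 (SE 0.33) at 6 h and -1.98 (SE 0.30) at 12 h after E. tarda FKC, and -0.42 and -0.15 after S. iniae FKC.

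**Figure D4:**
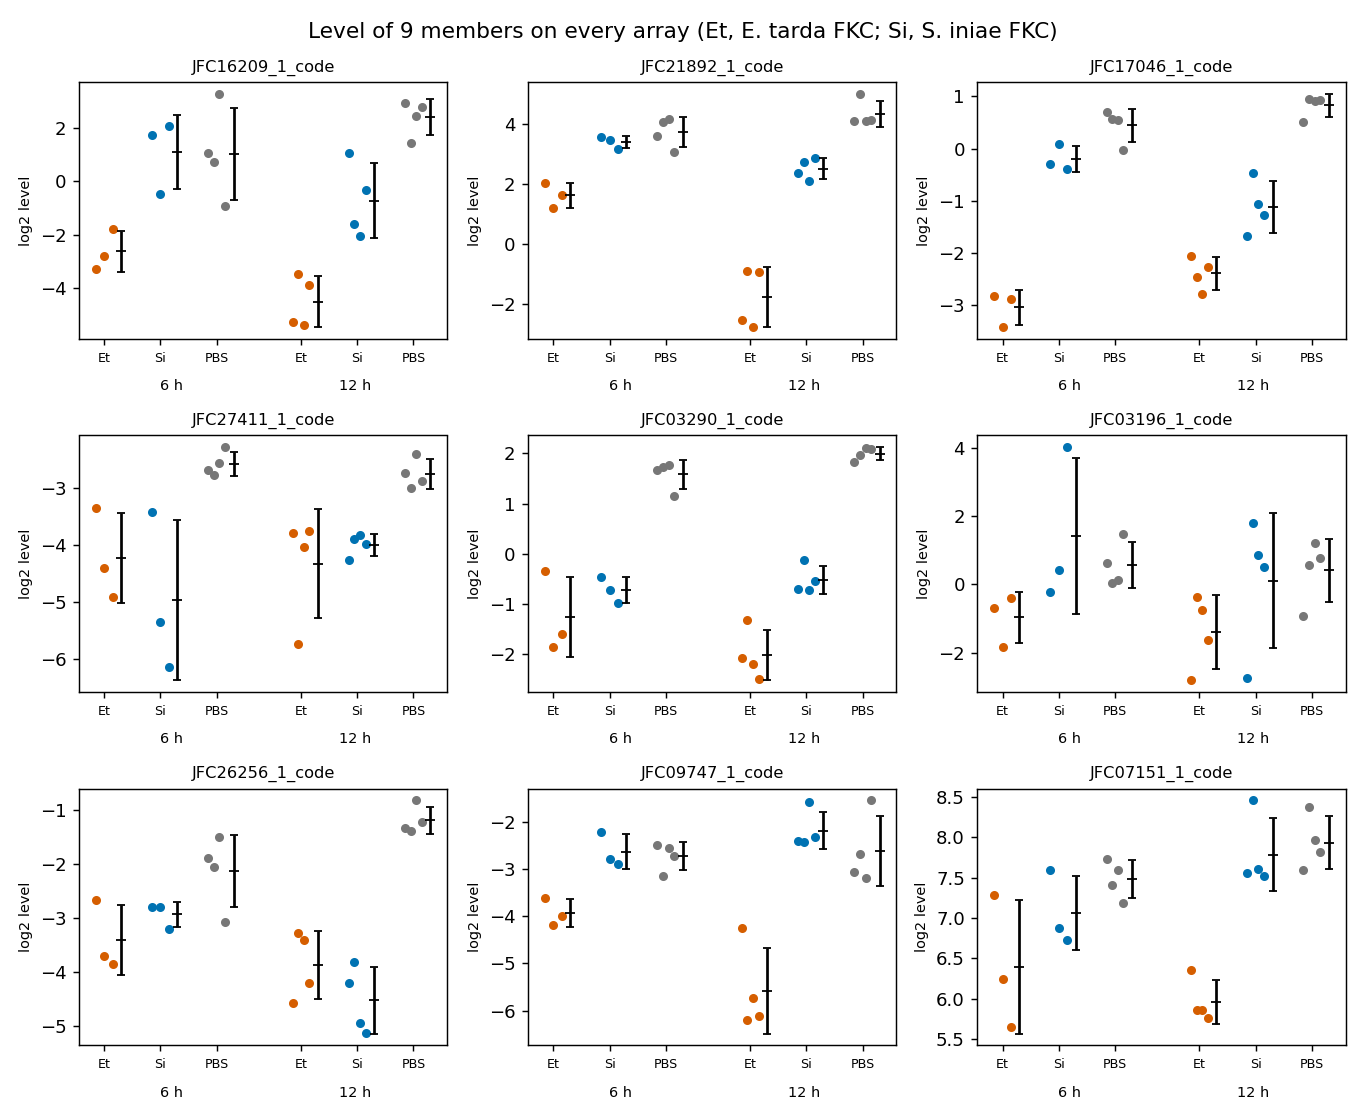
Normalized log2 level on every array for 9 members singled out by their place in the set, with E. tarda FKC (Et, orange), S. iniae FKC (Si, blue) and PBS (grey) at 6 h and 12 h; bars give the mean and SD of a group (n = 3 or 4), and each panel has its own scale. E. tarda arrays lie lowest in most panels, while JFC26256_1_code at 12 h and JFC27411_1_code at 6 h have their lowest arrays after S. iniae FKC, some or all of them not well above background.

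The arrays of S. iniae FKC at 6 h were the only ones that the selection did not use. Their comparison with PBS at 6 h shares its 4 PBS arrays with the selection and is not independent of it. Choosing probes low against these PBS arrays favours those whose PBS mean was high by chance, which pushes this change below 0. The counts and p-values for lower members carry that bias, whose size was not tested. These S. iniae arrays also lay on slide 1 with the E. tarda arrays that chose the members, while PBS lay on slide 3. A probe's difference between these slides would enter both changes at 6 h, and its part was not tested. Of the 151 members, all tested, 5 were called lower and 0 higher with limma and a Benjamini-Hochberg adjusted p under 0.05. That was 3.31% of the members, beside 0.551% of all tested probes called lower and 1.04% called higher. The members' median change was -0.33, a 1.25-fold lower signal, with quartiles of -0.59 and -0.10 and a range of -2.39 to 0.84. Beside it stand medians of -0.00314 over all tested probes and -0.03 over the eligible probes. The estimate was below 0 in 125 members and above 0 in 26, beside 50.3% of all tested probes below 0. An unadjusted p under 0.05 with a lower level was found in 30 members, beside 732 of the 11068 tested probes, and with a higher level in 1 member, beside 793 probes. All 3 S. iniae arrays lay below all 4 PBS arrays in 31 members, 20.5%, beside 7.41% of all tested probes. They lay above all 4 in 2 members, beside 8.78%. In 96 members the change was under 0.5 in size. Over all tested probes 176 were called in either direction. Without S. iniae replicate 2 or 3, or PBS replicate 3, 2 members were called, beside 51, 73 and 88 of all probes. In the fit of these groups alone 2 members and 34 of all probes were called. Calls rose among all probes too after normexp background correction and quantile normalization, to 813 with 21 members among them, and with array weights, to 645 with 14 members.

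The member called with the smallest adjusted p was JFC03290_1_code. At 6 h its levels were -0.35, -1.85 and -1.59 with E. tarda FKC, -0.47, -0.73 and -0.99 with S. iniae FKC, and 1.67, 1.73, 1.76 and 1.16 with PBS. At 12 h they were -2.08, -1.32, -2.20 and -2.50 with E. tarda FKC, -0.71, -0.12, -0.73 and -0.55 with S. iniae FKC, and 1.84, 1.96, 2.11 and 2.09 with PBS. Neither preparation's arrays overlapped PBS at either time, and the S. iniae arrays lay within the E. tarda range at 6 h and above it at 12 h. The S. iniae change at 6 h was -2.31 (SE 0.31, limma adjusted p = 0.000576), and its adjusted p was between 2.18e-05 and 0.0129 over the 33 alternatives. Beside it stand changes of -2.52 after S. iniae FKC at 12 h, and -2.85 and -4.03 after E. tarda FKC. JFC16529_1_code, one of 3 called members named after their values were seen, lay at nearly the same level with both preparations. It measured 0.18, 1.46 and 1.28 with E. tarda FKC, 1.25, 1.46 and 1.44 with S. iniae FKC, and 2.86, 3.21, 3.01 and 3.13 with PBS at 6 h. At 12 h it measured 0.88, 1.33, 1.61 and 1.59 with E. tarda FKC, 1.09, 1.29, 1.68 and 1.505 with S. iniae FKC, and 2.74, 3.09, 3.45 and 3.33 with PBS. All 14 FKC arrays lay below all 8 PBS arrays. Its S. iniae change at 6 h was -1.67 (SE 0.26, limma adjusted p = 0.00223, and between 0.000129 and 0.0166 over the alternatives), beside -1.76 at 12 h, and -2.08 and -1.80 after E. tarda FKC. For both members all PBS arrays were on slide 3 and no FKC array was, so slide and treatment cannot be told apart.

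The other 3 calls were each lost when certain single arrays were left out. JFC27411_1_code had the lowest S. iniae change at 6 h, -2.39 (SE 0.52, limma adjusted p = 0.0214). Its levels at 6 h were -3.35, -4.41 and -4.91 with E. tarda FKC, -3.41, -5.34 and -6.14 with S. iniae FKC, and -2.69, -2.76, -2.55 and -2.28 with PBS. It was well above background on 1 of the 3 S. iniae arrays and 1 of the 3 E. tarda arrays, so the size is uncertain. The call was lost without S. iniae replicate 2 or 3, without PBS replicate 3 or 4 and in the fit of these groups alone, with a limma adjusted p of up to 0.152. JFC11940_1_code measured -1.86, -2.24 and -1.85 with E. tarda FKC, -1.62, -2.06 and -2.60 with S. iniae FKC, and -0.90, -0.88, -0.60 and -0.80 with PBS at 6 h. Its S. iniae change was -1.30 (SE 0.28, limma adjusted p = 0.021), slightly larger than its E. tarda change of -1.19. That call was lost without S. iniae replicate 2 or 3, without PBS replicate 3 and in the fit of these groups alone, with a limma adjusted p of up to 0.149. JFC26564_1_code changed by -1.70 (SE 0.42, limma adjusted p = 0.0461), and 18 of 32 alternatives lost the call, all 7 that left out an array of these groups among them. At 6 h it measured -4.37, -3.67 and -3.75 with S. iniae FKC, and -2.33, -1.94, -2.68 and -1.95 with PBS. It was well above background on no array of either preparation at 12 h, so it is dim and the size is uncertain. At the other end, JFC03196_1_code had the highest S. iniae change at 6 h, 0.84 (SE 0.98, limma adjusted p = 0.771). Its levels were -0.69, -1.82 and -0.39 with E. tarda FKC, -0.22, 0.42 and 4.01 with S. iniae FKC, and 0.64, 0.04, 0.12 and 1.48 with PBS. Replicate 3 of S. iniae FKC stood far above the other 2, and without it the change was -0.47. JFC03196_1_code was also the 1 member whose change after E. tarda FKC at 12 h did not pass in the fit, so its place in the set rests on a mean of arrays far apart.

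At 12 h after S. iniae FKC the members' median change was -0.96, a 1.94-fold lower signal. This contrast was used in the selection, though only to leave out rises. The fitted changes ran between -3.32 and 0.44 with quartiles of -1.30 and -0.49. The lowest belongs to 1 of 8 members measured above background on no S. iniae array of 12 h, for which only a bound holds, and with these at their bound the median was -0.91. They were below 0 in 148 members, and lower than the members' own change at 6 h in 122. In the fit 70 members were called lower, beside 5.32% of all tested probes, which is given with no weight because the PBS arrays of 12 h chose the members. By size, 25 members lay at -1.5 or below, 41 between -1.5 and -1, 45 between -1 and -0.5, 37 between -0.5 and 0, and 3 above 0. The 25 with the largest S. iniae fall at 12 h had median changes of -2.25 at 6 h and -3.17 at 12 h after E. tarda FKC, and of -0.71 at 6 h and -1.81 at 12 h after S. iniae FKC. The 37 between -0.5 and 0 had medians of -1.38 and -1.80 after E. tarda FKC, and of -0.27 and -0.31 after S. iniae FKC. The E. tarda and S. iniae changes share their PBS arrays, which by itself ties them together. The medians of these size groups carry that tie and are a description only, and no correlation is given.

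**Figure D5:**
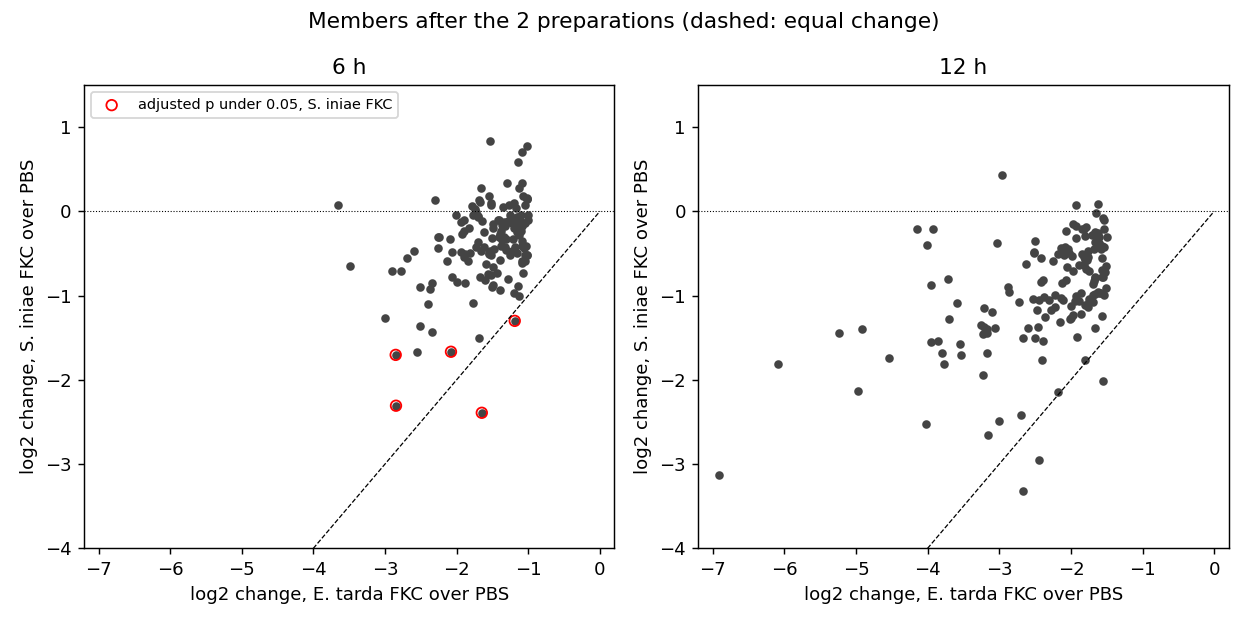
Each point is a member, with its log2 change over PBS after E. tarda FKC (horizontal) and S. iniae FKC (vertical) at 6 h (left) and 12 h (right); the dashed line marks equal change, and red rings mark the 5 members called for S. iniae FKC at 6 h. Nearly all points lie above the dashed line, apart from 2 at 6 h and 3 at 12 h, and the cloud is lower at 12 h.

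The preparations were on 1 slide at each time but in different rows of it, so slide row and preparation cannot be told apart. Between the preparations the members' median difference, E. tarda FKC minus S. iniae FKC, was -1.16 at 6 h and -1.29 at 12 h. Over all tested probes it was -0.00213 and -0.05. The 6 spike-in probes differed in the same comparison by -0.42 to -0.15 at 6 h and by -0.03 to 0.09 at 12 h. Their part in the members' difference was not tested. E. tarda FKC was lower in 149 members at 6 h and in 148 at 12 h. In the fit 89 members were called lower at 6 h, beside 6.29% of all tested probes, and 120 at 12 h, beside 9.32%. The E. tarda arrays chose the members, so these counts are not evidence of a difference. The exceptions at 6 h were JFC27411_1_code and JFC11940_1_code, described above. At 12 h they were JFC26256_1_code, JFC23439_1_code and JFC16174_1_code, the last 2 named after their values were seen. For JFC26256_1_code and JFC23439_1_code the order of the preparations is not established, since 0 of the 4 S. iniae arrays of 12 h were well above background. JFC26256_1_code had levels of -4.57, -3.26, -3.41 and -4.20 with E. tarda FKC, -4.20, -3.81, -4.94 and -5.12 with S. iniae FKC, and -1.34, -1.38, -0.82 and -1.23 with PBS at 12 h. Its E. tarda and S. iniae arrays overlapped, both far below PBS. It was well above background on 2 of the 4 E. tarda arrays, with a change of -2.67 over all 4, and its S. iniae level was at least 5.86-fold lower than PBS. The opposite case was JFC09747_1_code, with the highest S. iniae change at 12 h, 0.44. Its levels were -4.25, -6.20, -5.74 and -6.13 with E. tarda FKC, -2.41, -2.42, -1.58 and -2.31 with S. iniae FKC, and -3.06, -2.67, -3.19 and -1.54 with PBS at 12 h. The S. iniae arrays overlapped those of PBS. All E. tarda arrays lay below both, and none was well above background, so it was at least 2.35-fold lower than PBS.

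In PBS kidneys the members' median difference, PBS at 12 h minus PBS at 6 h, was 0.000496, beside -0.02 over all tested probes, with 77 members higher and 74 lower. The PBS arrays of both times were used to choose the members, so these values are a description. PBS arrays of 6 h and 12 h also lay in different rows of slide 3. In the fit 1 member was called, beside 0.813% of all tested probes called lower. This was JFC26529_1_code, named after its values were seen, at -1.75. Its level was -1.51, -2.38, -1.85 and -1.61 on the PBS arrays of 12 h, against 0.03, -0.24, -0.25 and 0.10 on those of 6 h. After E. tarda FKC its changes were -2.06 at 6 h and -1.55 at 12 h, and the lower PBS level at 12 h stood beside the smaller change.

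The 151 probes lay on 151 different contig numbers. One other probe of the array shared such a number. JFC05325_2_code, a member, had changes of -1.07 and -1.66 after E. tarda FKC, while the other probe, on JFC05325_1_code, had -0.37 and -0.86. Across the 22 arrays, after removing group means, the median correlation over the 11325 pairs of members was 0.1, and 0 pairs were above 0.95. Array noise lowers such correlations, so members that measure the same transcript could stay under that limit. The correlations are a description, since the arrays share slides. The members were spread over the array surface, with 29.8%, 21.2%, 26.5% and 22.5% in its 4 quadrants, beside 25%, 25.1%, 24.9% and 25% of all JFC probes. An alternative started from median rather than processed signals, with normexp background correction, which adds 50 to each signal, and quantile normalization. In it 47 probes met the limits, 44 of them among the 151. With quantile normalization alone, scaling to the median or the authors' deposited log2 values, 139 to 148 did, and 131 to 148 were among the 151. The authors' values rest on the same scaling as the limits, so their count is not a separate check.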

How the data were processed

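The 22 one-colour Agilent arrays each held kidney RNA of Japanese flounder. The deposited intensity values are Feature Extraction processed signals, background-subtracted by the scanner software (version 10.7.3.1 per the file headers, 9.5.3.1 per the submitters' processing notes). A value table deposited by the authors, in log2 units, was used as an alternative only. Set against the scanner files, it held log2 signal less the array's 75th percentile and less the probe's median over PBS arrays of the same time, with column medians of -0.279 to 0.027, and its direction was that of the signals.

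Processed signals were put on the log2 scale, each array's 75th percentile was subtracted, and spots of a probe were averaged. A linear model over all 22 arrays (limma 3.58.1, R 4.3.3) was fitted to the 11068 probes well above background on at least 3 arrays, with control and outlier-marked spots left out and Benjamini-Hochberg adjusted p under 0.05 as the call. A fit of S. iniae FKC against PBS at 6 h was tested on simulated data with 200 changed probes of 11068. In it 47% of 2-fold and 84% of 4-fold changes were recovered and 7 of 138 calls were false. That share does not carry over to the real calls, where slide and treatment cannot be told apart and the selection shares the PBS arrays.

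The members and the lists were chosen with earlier results of these data known. Named members are the 2 lowest at each E. tarda time, the 2 lowest and the highest for S. iniae FKC at 6 h, the lowest and the highest at 12 h, and the one with the highest PBS level. None of 12 gene lists could be counted, because no probe name matched a gene. Normalization, filter, model and leaving out each array were varied. The normexp alternative started from median spot and background signals, not from processed signals.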

Additional observations from a re-analysis of the deposited data

Results flagged for a closer look

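In groups of 4 arrays, 8 of the 40 groups looked at had 1 array far from the other 3, judged by the gap to its nearest neighbour as a share of the group's range (Dixon's 95% limit); that share is given in brackets. Chance gives about 1 in 20 such groups where groups are independent and not chosen by their values. These 40 share arrays, and nearly all are of members picked as extremes of these same arrays. Their count is therefore not a test against that share. JFC07151_1_code had E. tarda FKC replicate 1 high at 12 h (0.838) and S. iniae FKC replicate 2 high at 12 h (0.912). JFC27411_1_code had E. tarda FKC replicate 2 low at 12 h (0.854). JFC09747_1_code had S. iniae FKC replicate 3 high at 12 h (0.869). Of the PBS arrays of 12 h, replicate 2 was high for JFC21892_1_code (0.961), replicate 1 was low for JFC17046_1_code (0.921), and replicate 4 was high for the members' median level (0.844). JFC03290_1_code had PBS replicate 4 low at 6 h (0.850), and without that array its adjusted p stayed under 0.05.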

How the results depend on the processing

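With normexp and quantile normalization 47 probes met the limits, 44 of them among the 151, the members had median E. tarda changes of -0.983 at 6 h and -1.298 at 12 h, 21 members and 813 probes were called for S. iniae FKC at 6 h, and JFC07151_1_code changed by 0.152; the cause was not tested. Other counts for that comparison were 286 probes with no filter, 3 members with probes above background on all 22 arrays, 2 members and 34 probes in the fit of the compared groups alone, and 14 members and 645 probes with array weights, where JFC16209_1_code changed by -0.584 and JFC09747_1_code by -0.021. With 1 array left out, 124 to 171 probes met the limits, the S. iniae median at 6 h was -0.422 (without PBS replicate 4) to -0.286, and 2 to 6 members and 51 (without S. iniae replicate 2) to 224 (without PBS replicate 2) probes were called. The 6 h S. iniae change ran between -0.576 and 0.872 for JFC16209_1_code, between -0.470 and 1.648 for JFC03196_1_code, and between -0.118 and 0.228 for JFC09747_1_code. With the replicate number as a replicate block, 5 members and 160 probes were called. Same-numbered arrays of S. iniae FKC and PBS had correlations of 0.06, 0.08 and -0.07, 1 of 3 best with its own number, so the numbers were not taken to pair samples. Signal over background limits the dimmest members, for which changes are bounds at 12 h and, in 5 members after E. tarda FKC, at 6 h.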

Other observations

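Probes that carry GenBank or POC names instead of JFC contigs were not eligible as members. Of the 244 such probes well above background on all PBS arrays, 14 met the same numeric limits, 5.74%, beside 2.05% of the eligible JFC probes. Their median change was -1.45 at 6 h and -2.12 at 12 h with E. tarda FKC, and -0.46 at 6 h and -0.99 at 12 h with S. iniae FKC. The S. iniae changes at 6 h ran between -1.80 and 0.58.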
